A study of Mus musculus with 6 samples.

Results

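The interferon response genes described here are 34 mouse genes given by symbol, drawn from those that interferons are known to induce. A gene was kept when its symbol stood in the gene list of every library, whatever its level. Of the 34, 32 were kept, out of 30406 genes that all libraries share. Mx2 stood in no list, and Mx1 in those of 4 libraries.

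The 6 libraries hold single nuclei of frozen adrenal glands, a pair of whole glands per library, sorted by a DNA stain and captured in droplets. The mice were C57BL/6 J females, 10 to 11 months old, and the labels name no treatment. Tmem127, a transmembrane protein gene whose human counterpart is linked to pheochromocytoma, is the gene studied: 2 libraries are labelled KO and 3 are labelled WT. The sixth has WT in its title and KO in its genotype field, so it entered no genotype comparison and is called the unassigned library. The labels give neither the deleted part of the gene nor a cell type to which a deletion is limited. Nothing beyond separate gland pairs is said of the replicates, so p-values measure the spread between these libraries.

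The analysis used 21035 nuclei. Total UMIs (unique molecular identifiers, each a captured RNA molecule) ran from 4825169 in KO replicate 2 to 43377724 in WT replicate 1, and the median per nucleus from 1289 to 7675. KO replicate 2 and WT replicate 2 were the shallowest. Any pair of libraries shared 2 to 9 cell barcodes. Nuclei were clustered without the interferon genes, and clusters were named from marker genes, so every cell type name below means a cluster that resembles that type. The lineages compared were endothelial (4625 nuclei), immune (1484: macrophage, dendritic, T or NK and B cell), stromal (3226: capsule or fibroblast, pericyte or smooth muscle) and endocrine (8728: cortical zones and chromaffin). Levels are in CPM (UMI counts of a gene over those of every gene in the nuclei named, on the usual sequencing scale) and so are shares of nuclear RNA.

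Type I interferons bind a receptor of IFNAR1 and IFNAR2, whose kinases phosphorylate STAT2 among other proteins. A complex that holds STAT2 and IRF9 then binds the interferon-stimulated response element (ISRE) in the promoters of many antiviral genes. A low level of such transcripts, often called interferon tone, is kept in many tissues without infection. In the adrenal gland, endothelium lines a dense bed of sinusoids between cords of steroid-producing cells, and macrophages lie beside it.

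Promoters are shown for 3 genes that stood highest in endothelium (Rsad2, Cmpk2, Ifi44), for 2 that stood highest in macrophages (Oas1a, Oas3) and for Isg15, the family's namesake. RefSeq windows on GRCm38.p6, from 250 bases before to 50 bases after the start site, were at hand for 23 of the 32 genes. The core of the ISRE, written as GAAA, any 2 bases and GAAA again, was searched on both strands with overlaps allowed. It was found for 14 of the 23 genes (60.9%), a gene counting if any of its windows held it, and in 15 of their 27 windows. Of 32851 RefSeq windows of the same length, 3.44% held it. The 250 bases before each start site follow, 5′ to 3′ on the gene's strand, with ISRE core matches in capitals.
Rsad2, chr12:26456453-26456702, minus strand: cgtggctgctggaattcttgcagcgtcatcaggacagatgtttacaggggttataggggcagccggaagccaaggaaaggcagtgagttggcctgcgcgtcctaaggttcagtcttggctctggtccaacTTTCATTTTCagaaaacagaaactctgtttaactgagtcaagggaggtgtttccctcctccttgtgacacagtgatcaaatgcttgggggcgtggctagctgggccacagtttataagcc
Cmpk2, chr12:26468965-26469214, plus strand: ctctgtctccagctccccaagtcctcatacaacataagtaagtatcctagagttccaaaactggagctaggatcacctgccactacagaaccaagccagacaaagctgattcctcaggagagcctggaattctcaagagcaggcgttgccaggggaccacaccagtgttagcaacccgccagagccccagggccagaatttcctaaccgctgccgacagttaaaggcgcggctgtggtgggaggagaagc
Ifi44, chr3:151749911-151750160, minus strand: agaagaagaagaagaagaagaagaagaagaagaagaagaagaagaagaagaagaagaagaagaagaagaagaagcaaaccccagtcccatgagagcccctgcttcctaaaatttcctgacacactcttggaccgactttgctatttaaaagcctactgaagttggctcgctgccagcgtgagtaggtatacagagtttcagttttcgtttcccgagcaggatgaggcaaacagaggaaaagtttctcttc
Oas1a, chr5:120907526-120907775, minus strand: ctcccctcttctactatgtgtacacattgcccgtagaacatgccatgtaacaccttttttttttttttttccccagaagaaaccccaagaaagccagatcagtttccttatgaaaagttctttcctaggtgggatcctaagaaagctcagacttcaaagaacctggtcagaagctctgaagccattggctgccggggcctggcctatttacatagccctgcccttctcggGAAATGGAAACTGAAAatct
Oas3, chr5:120777660-120777909, minus strand: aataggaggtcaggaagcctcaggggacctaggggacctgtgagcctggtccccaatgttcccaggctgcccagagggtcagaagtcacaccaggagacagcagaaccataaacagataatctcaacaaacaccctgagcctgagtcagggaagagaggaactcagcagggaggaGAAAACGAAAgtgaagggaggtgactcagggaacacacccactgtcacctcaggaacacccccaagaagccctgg
Isg15, chr4:156200819-156201068, minus strand: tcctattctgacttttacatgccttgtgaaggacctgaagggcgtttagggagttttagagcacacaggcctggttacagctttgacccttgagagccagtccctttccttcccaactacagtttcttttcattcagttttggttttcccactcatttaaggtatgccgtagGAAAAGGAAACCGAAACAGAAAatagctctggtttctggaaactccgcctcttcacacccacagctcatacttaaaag
The match of Rsad2 began 120 bases before the start site and that of Oas3 75 bases before it. Oas1a held 2 overlapping matches from 20 bases before its start site, and Isg15 held 3 from 78 bases before it. The windows of Cmpk2 and Ifi44 held none of these letters. Rsad2 (chr12:26442746-26456452, minus strand) and Cmpk2 (chr12:26469204-26479837, plus strand) are transcribed away from each other, with 12752 bases between their start sites.

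Macrophages and endothelium held the highest levels of most of these genes. Over the 12 classes with at least 20 nuclei in each library, 16 of the 32 genes had their highest mean in macrophages and 4 in endothelium. Another 7 had it in Schwann or sustentacular nuclei, a class of 176 nuclei in which every one of them overlapped the next class. For 5 genes the leading class was above the next in every library without overlap: Rsad2 and Ifi44 in endothelium, and Oas1a, Oas2 and Rnf213 in macrophages.

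**Figure D1:**
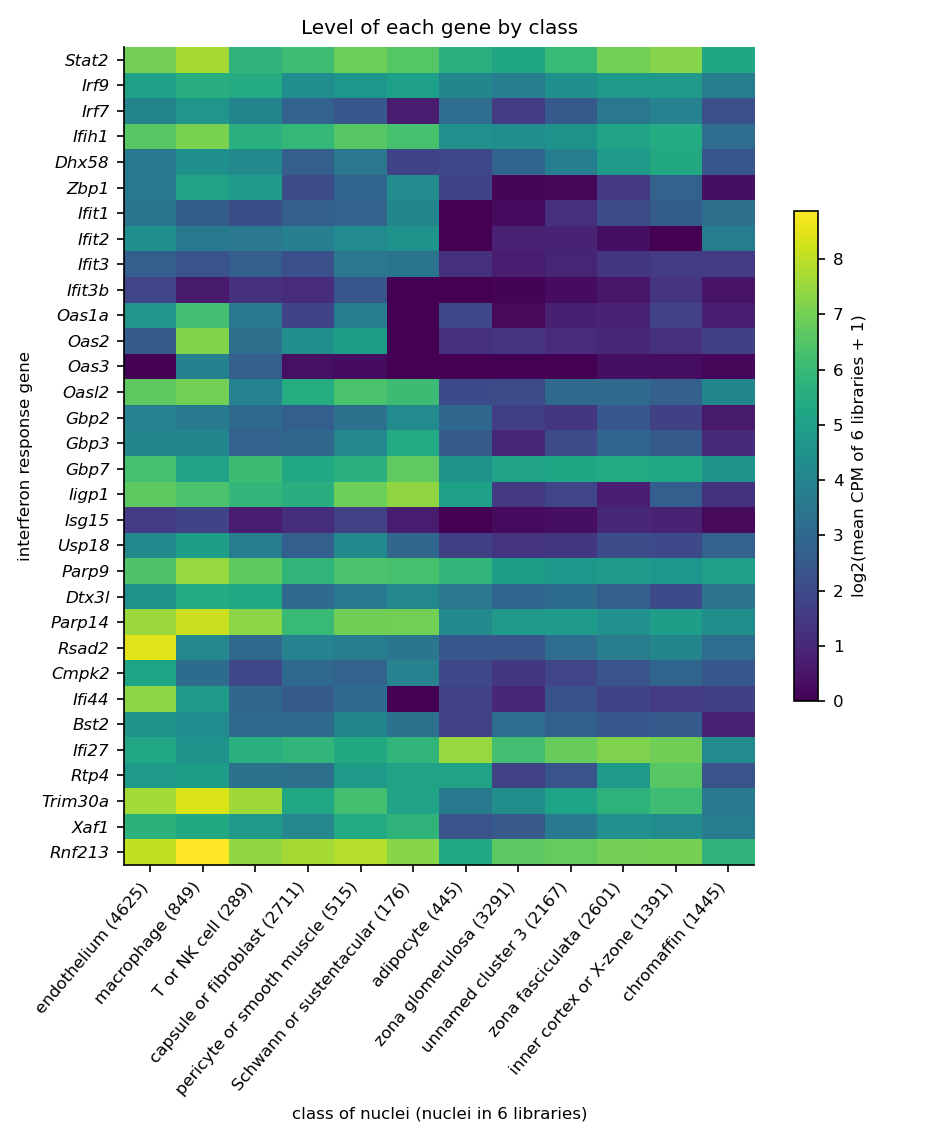
Mean level over 6 libraries of 32 interferon response genes (rows, by role) in 12 classes of nuclei (columns, with their number of nuclei), as log2 of the mean CPM plus 1. Rsad2 and Ifi44 are brightest in endothelium, Oas2 and Rnf213 in macrophages, and Rtp4 in the inner cortex or X-zone.

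Rsad2 stood far higher in endothelium than in each other lineage. It encodes viperin, an enzyme that makes a chain-terminating nucleotide against viral RNA synthesis. In endothelial nuclei the lowest, median and highest library held 311, 332 and 491 CPM. Endocrine nuclei held 4.57, 6.68 and 20.3 CPM, immune nuclei 4.90, 12.4 and 23.3 CPM and stromal nuclei 5.13, 13.3 and 24.4 CPM. All 6 endothelial values stood above every other value, and KO replicate 2 was the highest library in each lineage. The log2 fold of endothelium was 5.55 ± 0.16 (SE) over endocrine, 5.07 ± 0.21 over immune and 4.94 ± 0.18 over stromal nuclei. Adjusted p, by the quasi-likelihood test of edgeR after Benjamini-Hochberg adjustment, was 4.8e-20, 1.1e-16 and 7.6e-18. Every call below comes from that test.

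Single nuclei were thinned to 1000 UMIs each, and those with fewer were left out. The latter were 970 of 2802 nuclei in KO replicate 2, 698 of 3286 in WT replicate 2 and 62 to 117 in each other library. After thinning, 882 of 3834 endothelial nuclei held an Rsad2 UMI (23.0%, 95% exact binomial interval 21.7 to 24.4%). In endocrine nuclei 60 of 8501 did (0.706%, 0.539 to 0.908%). Unthinned, the shares were 36.0% in endothelial nuclei (median depth 2199 UMIs) and 4.03% in endocrine nuclei (median depth 6472 UMIs). Intervals cover counting error only. RNA set free from other cells can give such UMIs: the endocrine level of 13 endothelial markers was 0.263 to 3.33% of their endothelial level, with a median of 0.535%. The same ratio was 2.09% for Rsad2 and 0.990% for Ifi44, both above the median and inside the range of the markers, and 9.76% for Cmpk2, above the range. The part of free RNA in these endocrine levels was not tested.

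Ifi44 and Cmpk2 had the same placement among the 4 lineages. Ifi44, an interferon-induced gene with antiviral activity, stood at 104, 169 and 198 CPM (lowest, median, highest library) in endothelial and at 1.46, 1.80 and 2.3 CPM in endocrine nuclei. Immune nuclei held 4.27, 20.5 and 30.5 CPM and stromal nuclei 3.48, 5.39 and 6.75 CPM. Endothelium overlapped none of them, and its log2 fold was 6.63 ± 0.16 over endocrine, 3.31 ± 0.17 over immune and 5.06 ± 0.17 over stromal nuclei.

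Cmpk2, a mitochondrial nucleotide kinase gene and the neighbour of Rsad2, stood at 31.6, 33.7 and 37.9 CPM in endothelial and at 1.54, 2.77 and 7.58 CPM in endocrine nuclei. Immune nuclei held 0, 6.04 and 11.7 CPM and stromal nuclei 3.42, 6.10 and 10.9 CPM. No value from another lineage reached the endothelial range, and the log2 folds were 3.49 ± 0.24, 2.69 ± 0.35 and 2.61 ± 0.28 over endocrine, immune and stromal nuclei. Outside these lineages, Schwann or sustentacular nuclei had a mean of 14.3 CPM, and their highest library, at 62.2 CPM, exceeded the endothelial range. Endothelium was above that class in 5 of 6 libraries.

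**Figure D2:**
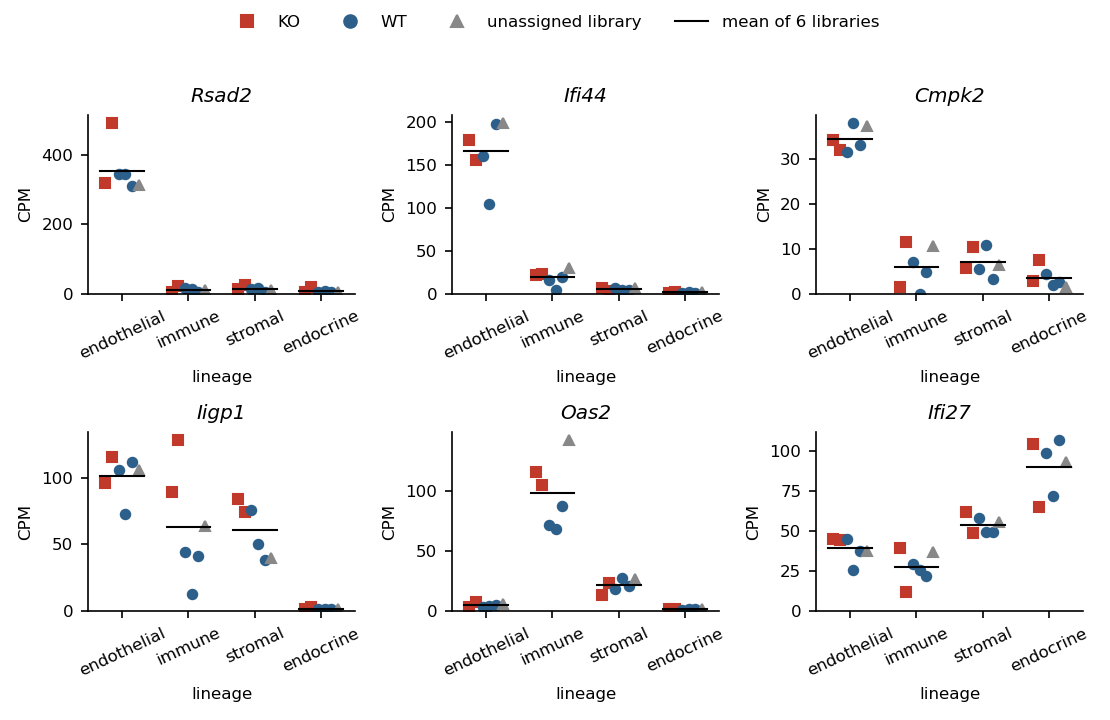
Level in CPM (linear axes from 0) of 6 genes in 4 lineages, with a symbol per library (2 KO, 3 WT, 1 unassigned) and a line at the mean of 6 libraries. Rsad2, Ifi44 and Cmpk2 stand high in endothelial, Oas2 in immune and Ifi27 in endocrine nuclei, and Iigp1 is near 0 in endocrine nuclei only.

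Across the list, endocrine nuclei held the lowest levels of most genes. The test covered 30 of the 32, since Isg15 and Ifit3b had too few UMIs. Between endothelial and endocrine nuclei 27 were higher and 2 lower in endothelium, where 28.8% of all 13615 genes tested were higher and 33.9% lower. In immune against endocrine nuclei 23 were higher and 1 lower (28.5% and 34.5% of all genes). In stromal against endocrine nuclei 21 were higher and 3 lower (26.1% and 26.3% of all genes). Median log2 folds of the 30 were 1.99, 1.82 and 0.96, beside -0.06, -0.12 and -0.02 over all genes. After thinning to 1000 UMIs, with shallower nuclei left out, the stromal count of higher genes was 10.

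Between endothelial and immune nuclei 11 of the 30 genes were higher in endothelium and 7 in immune nuclei, where 24.3% and 24.1% of all genes were, with a median log2 fold of 0.13. The share of genes higher in immune nuclei was near that of all genes, and after thinning to 1000 UMIs their count was 4. Against stromal nuclei, 26 genes were higher and 2 lower in endothelium (24.3% and 26.8% of all genes). In immune against stromal nuclei 22 were higher and 1 lower (27.2% and 30.3% of all genes).

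Among the factors of the pathway, endothelial and immune folds over endocrine nuclei were below the medians of the 30 genes, 1.99 and 1.82. Stat2 stood at 104, 129 and 165 CPM (lowest, median, highest library) in endothelial, 139, 174 and 184 CPM in immune, 67.5, 79.1 and 86.0 CPM in stromal and 64.0, 79.3 and 88.7 CPM in endocrine nuclei. Endothelial and immune libraries lay above all others and overlapped each other, with log2 folds over endocrine nuclei of 0.77 ± 0.11 and 0.86 ± 0.12. Irf9, the DNA-binding part of the complex, was higher by 0.80 ± 0.15 in endothelial and 1.09 ± 0.17 in immune than in endocrine nuclei. Irf7, which amplifies interferon production, was higher by 1.11 ± 0.21 and 1.46 ± 0.25. For none of the 3 did the difference between stromal and endocrine nuclei pass the test.

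The sensors differed from each other. Ifih1 encodes MDA5, a sensor of long double-stranded RNA. It stood at 82.9, 94.8 and 104 CPM in endothelial nuclei and at 18.2, 24.6 and 30.7 CPM in endocrine nuclei, without overlap (log2 fold 1.98 ± 0.11). Its log2 fold between endothelial and immune nuclei was 0.04 ± 0.12 and did not pass. Zbp1, a sensor of Z-form nucleic acids, was higher in immune nuclei than in all other lineages, by 4.49 ± 0.29 over endocrine and 1.41 ± 0.27 over endothelial nuclei.

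Dhx58, whose product LGP2 modulates MDA5, had the opposite order, with lower levels in endothelial (-0.47 ± 0.16) and stromal (-1.62 ± 0.19) than in endocrine nuclei. Inside the cortex it stood at 22.8, 41.0 and 60.5 CPM (lowest, median, highest library) in the inner cortex or X-zone. In the zona glomerulosa, the outer zone, it stood at 3.48, 6.10 and 10.8 CPM. These 2 ranges did not overlap. Zona fasciculata, with a mean of 28.3 CPM and 41.7 CPM in its highest library, overlapped the inner cortex or X-zone. No test was run between cortical zones.

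The OAS genes encode sensors of double-stranded RNA that switch on RNase L. Oas2 stood at 68.3, 96.0 and 142 CPM (lowest, median, highest library) in immune, 13, 22.1 and 27.3 CPM in stromal, 3.07, 4.62 and 7.4 CPM in endothelial and 0.601, 1.5 and 2.09 CPM in endocrine nuclei. The 4 ranges did not overlap. Its log2 fold in immune nuclei was 6.01 ± 0.21 over endocrine nuclei, and that of endothelium over immune nuclei was -4.21 ± 0.23. In macrophages alone it stood at 101, 141 and 214 CPM.

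Oas3 had 51 UMIs in immune nuclei and 0 among the 11447678 UMIs of endothelial nuclei. Its pooled immune level of 13.3 CPM was at least 50.7-fold higher than in endothelium, taken at a floor of 3 UMIs over all endothelial nuclei (0.262 CPM). Oas1a was present in both: immune nuclei held 29.9, 55.4 and 70.3 CPM and endothelial nuclei 17.4, 23.1 and 32.7 CPM, with overlap and a log2 fold of -0.87 ± 0.16 in endothelium. Endocrine nuclei held 0.209, 0.699 and 1.29 CPM of Oas1a. Oasl2, which encodes an OAS-like protein with ubiquitin-like domains, was higher by 3.85 ± 0.16 in endothelial and 3.38 ± 0.18 in immune than in endocrine nuclei. The Oas genes are related in sequence, and nothing in the sources used here says how shared reads were assigned.

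Transcripts of the IFIT family, whose proteins bind viral RNA ends, were sparse. Ifit2 stood at 17.9, 19.4 and 26.9 CPM (lowest, median, highest library) in endothelial and at 2.49, 2.81 and 3.59 CPM in endocrine nuclei, without overlap (log2 fold 2.91 ± 0.24). Ifit1 was higher in endothelium than in each other lineage, by 1.58 ± 0.26 over endocrine nuclei, while its immune and stromal folds over endocrine nuclei did not pass. Ifit3 was higher by 1.96 ± 0.35 in endothelial, 1.70 ± 0.46 in immune and 1.69 ± 0.35 in stromal than in endocrine nuclei. Ifit3b had 28 UMIs in endothelial and 28 in endocrine nuclei. Ifit3 and Ifit3b are near copies, so their split is uncertain.

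Interferon-induced GTPases attack the vacuoles of intracellular microbes. Iigp1 stood at 73.2, 106 and 116 CPM (lowest, median, highest library) in endothelial, 12.8, 54.1 and 128 CPM in immune and 38.4, 62.4 and 84.5 CPM in stromal nuclei. Endocrine nuclei held 1.29, 1.46 and 3.19 CPM, below every value of the other lineages. Log2 folds over endocrine nuclei were 6.08 ± 0.24, 5.03 ± 0.28 and 5.14 ± 0.24. The pooled endocrine level was 1.48% of the endothelial one.

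Gbp2 and Gbp3 were higher in endothelial, immune and stromal than in endocrine nuclei, Gbp2 by 2.56 ± 0.28, 2.13 ± 0.36 and 1.22 ± 0.32. Gbp7 was higher in endothelium than in each other lineage, by 1.25 ± 0.12 over endocrine nuclei. Its folds of 0.22 ± 0.15 in immune and 0.23 ± 0.12 in stromal nuclei did not pass. The GBP genes lie together on chromosome 3 and are related in sequence, so reads may be shared.

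Isg15, a ubiquitin-like modifier, was barely captured, with 25 UMIs in endothelial, 11 in immune, 15 in stromal and 34 in endocrine nuclei. Usp18, the protease that removes ISG15 and restrains the receptor, stood at 12.3, 14.8 and 28.4 CPM (lowest, median, highest library) in endothelial and at 12.8, 24.0 and 40.8 CPM in immune nuclei. These overlapped, and both lay above the endocrine values of 1.46, 3.08 and 5.58 CPM (log2 folds 2.63 ± 0.19 and 2.76 ± 0.22).

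Parp9, Dtx3l and Parp14 lie together on chromosome 16 and act in ADP-ribosylation and ubiquitination. Parp14 stood at 145, 241 and 309 CPM in immune and at 16.6, 22.4 and 32.3 CPM in endocrine nuclei, without overlap (log2 fold 3.14 ± 0.12). Its log2 fold between endothelial and immune nuclei was -0.10 ± 0.11 and did not pass. Parp9 (-0.59 ± 0.12) and Dtx3l (-0.76 ± 0.18) were lower in endothelial than in immune nuclei. Parp9 (chr16:35938470-35972605, plus strand) and Dtx3l (chr16:35926511-35939151, minus strand) overlap, and no source used here says whether counting used the strand.

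Of the other effectors, Rnf213, a giant ubiquitin ligase, stood at 343, 462 and 636 CPM in macrophages and at 85.2, 97.0 and 129 CPM in endocrine nuclei. Trim30a, a TRIM family gene, was higher by 2.65 ± 0.12 in endothelial and 2.93 ± 0.13 in immune than in endocrine nuclei, but by 0.33 ± 0.13 in stromal nuclei. Xaf1, a gene linked to apoptosis, was higher by 2.01 ± 0.13 in endothelial nuclei. Bst2, which encodes tetherin, a protein that holds budding virus at the cell surface, was higher in endothelium by 2.3 ± 0.16 over endocrine and 0.71 ± 0.19 over immune nuclei.

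Ifi27 and Rtp4 were exceptions in the cortex. Ifi27, whose product is linked to mitochondria, stood at 65.0, 95.7 and 107 CPM (lowest, median, highest library) in endocrine nuclei. Endothelial nuclei held 25.7, 41.1 and 45.0 CPM, immune nuclei 11.7, 27.5 and 39.6 CPM and stromal nuclei 48.8, 52.6 and 61.8 CPM. Every endocrine value was above all of these, and the log2 folds against endocrine nuclei were -1.19 ± 0.12, -1.85 ± 0.14 and -0.84 ± 0.11. Within the endocrine classes its median ran from 148 CPM in zona fasciculata to 18.9 CPM in chromaffin nuclei, and adipocytes, outside the lineages, had the highest mean. Summed zona fasciculata markers were 4775 to 10586 CPM in endocrine nuclei. They were 723 to 1282 CPM in endothelial, 804 to 2592 CPM in immune and 747 to 1220 CPM in stromal nuclei. The part of free cortical RNA in the levels of Ifi27, Rtp4 and Dhx58 outside the endocrine lineage was not tested.

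Rtp4, a receptor-transporting protein gene, stood at 53.6, 99.5 and 122 CPM in the inner cortex or X-zone, the innermost cortical zone. It stood at 13.3, 20.6 and 47.0 CPM in zona fasciculata and at 0.290, 2.18 and 5.81 CPM in zona glomerulosa. The 3 zones did not overlap. Over whole lineages Rtp4 was higher in endothelial (0.46 ± 0.17) and lower in stromal (-0.83 ± 0.20) than in endocrine nuclei.

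For other genes of the pathway, called shares of all genes tested were those given above: 28.8% higher and 33.9% lower in endothelial, 28.5% and 34.5% in immune and 26.1% and 26.3% in stromal against endocrine nuclei, and 24.3% and 24.1% in endothelial against immune nuclei. Of 16 receptor and transducer genes, 11 were higher and 1 lower in endothelial than in endocrine nuclei, including Ifnar1 (1.42 ± 0.10), Ifnar2 (1.61 ± 0.11) and the interferon gamma receptor gene Ifngr1 (2.27 ± 0.12). In immune against endocrine nuclei 14 were higher and 0 lower, with Ifnar1 at 1.89 ± 0.10 and Ifnar2 at 1.58 ± 0.12. In stromal nuclei 7 were higher and 3 lower, and Ifnar1 (-0.02 ± 0.10) and Ifnar2 (0.27 ± 0.11) did not pass. Between endothelial and immune nuclei 0 were higher and 11 lower in endothelium, unlike the 11 higher and 7 lower of the interferon response genes.

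Of 17 sensor and adaptor genes tested, 9 were higher and 4 lower in endothelial than in endocrine nuclei. They included Tlr4, a receptor for bacterial lipopolysaccharide (6.24 ± 0.17), the DNA sensor gene Ifi204 (5.77 ± 0.20) and, lower, the kinase gene Ikbke (-3.60 ± 0.26). Immune nuclei had 13 higher and 1 lower, with the RNA receptor gene Tlr7 at 9.78 ± 0.28, and stromal nuclei 7 higher and 2 lower. Against immune nuclei, 0 were higher and 12 lower in endothelium. Of 6 interferon regulatory factors tested, 5 were higher in endothelial and 6 in immune than in endocrine nuclei, with Irf1 at 2.31 ± 0.14 and 2.55 ± 0.15, and 3 were higher in stromal nuclei. Against immune nuclei, 0 were higher and 4 lower in endothelium. Of 13 genes that restrain nucleic acid sensing, 5 were higher and 1 lower in endothelium and 7 were higher in immune nuclei, among them Samhd1, which depletes nucleotides (1.95 ± 0.11 and 3.61 ± 0.11). In stromal nuclei 2 of these 13 were higher and 4 lower, and in endothelial against immune nuclei 1 was higher and 7 lower.

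Of 67 further interferon-stimulated genes tested, 58 were higher and 2 lower in endothelial, 60 higher and 0 lower in immune and 40 higher and 3 lower in stromal than in endocrine nuclei. Those with the smallest p in endothelium included Slfn5 (7.96 ± 0.19), Sp100 (5.56 ± 0.15) and Ly6e (4.40 ± 0.13). Between endothelial and immune nuclei 15 were higher and 29 lower in endothelium, the latter including Epsti1 (-6.17 ± 0.19) and Ciita (-4.68 ± 0.19). None of the 16 interferon ligand genes listed had enough UMIs to be tested.

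Within the endothelium the level of these genes was uneven. Clusters 2, 6 and 10, with 2544, 1015 and 724 nuclei, had at least 20 nuclei in each library, and 13 of 13 endothelial markers passed in each. Clusters 16 and 22 (275 and 67 nuclei) had fewer in some library and were not tested. Cluster 2 was led by genes such as Lrrc3b and Chrm3, cluster 6 by Car8 and Tll1, and cluster 10 by Cyp26b1, Esm1 and Dll4. Rsad2 was itself among the 10 leading genes of cluster 10, although no interferon gene was used in clustering. Of 24 genes tested, 14 were higher and 0 lower in cluster 10 than in the mean of the other 2 clusters, where 8.1% of 7288 genes were higher and 8.82% lower. In cluster 6, 0 were higher and 13 lower (8.95% and 7.49% of all genes). In cluster 2, 2 were higher and 2 lower (7.89% and 6.26% of all genes). Median log2 folds of the 24 were 0.63 in cluster 10, -0.60 in cluster 6 and 0.00 in cluster 2. The folds of a gene share the same cluster means, so a high level in a cluster lowers its folds in the others. Counts and folds of these clusters, here and below, are therefore not independent of each other.

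Rsad2 stood at 633, 704 and 889 CPM (lowest, median, highest library) in cluster 10, at 326, 333 and 570.3 CPM in cluster 2 and at 59.0, 78.9 and 122 CPM in cluster 6. The 3 ranges did not overlap, and the log2 folds were 2.14 ± 0.10, 0.65 ± 0.09 and -2.80 ± 0.12. After thinning, 41.3% of nuclei of cluster 10 (exact interval 37.2 to 45.5%), 24.9% of cluster 2 (23.1 to 26.8%) and 5.98% of cluster 6 (4.45 to 7.82%) held an Rsad2 UMI. Ifi44 stood at 297, 381 and 461 CPM in cluster 10, 82.7, 149 and 200.4 CPM in cluster 2 and 65.1, 142 and 158 CPM in cluster 6. Only cluster 10 stood clear for Ifi44, with a log2 fold of 1.36 ± 0.11.

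Cmpk2 (1.21 ± 0.23), Oas1a (1.23 ± 0.30), Usp18 (1.14 ± 0.33), Gbp3 (1.02 ± 0.34) and Oasl2 (0.80 ± 0.14) were also higher in cluster 10. Cmpk2 (-1.46 ± 0.25) and Oas1a (-1.78 ± 0.33) were lower in cluster 6. Rnf213 (0.09 ± 0.11) and Irf9 (0.01 ± 0.26) did not pass in cluster 10. The count in cluster 10 fell to 10 when one library was left out in turn.

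The genes of the type I receptor were ordered the same way, with Ifnar1 at 1.23 ± 0.16 in cluster 10 and -1.22 ± 0.17 in cluster 6, and Ifnar2 at 0.98 ± 0.12 and -0.94 ± 0.12. All 4 of these values passed. Over the 12 receptor and transducer genes tested, 4 were higher and 1 lower in cluster 10, and 3 were higher and 4 lower in cluster 6. Of all genes tested, 8.1% were higher and 8.82% lower in cluster 10, and 8.95% higher and 7.49% lower in cluster 6. Of 45 further interferon-stimulated genes tested, 14 were higher and 1 lower in cluster 10, and 1 was higher and 12 lower in cluster 6, with Ifi213 at 1.89 ± 0.19 and -1.84 ± 0.23. Markers of other cell types differed between these clusters too. Summed zona glomerulosa markers (11 of 12 with a UMI in cluster 10) were 655 to 826 CPM in cluster 10, 380.2 to 441 CPM in cluster 2 and 282 to 440.3 CPM in cluster 6. Summed capsule or fibroblast markers were 52.3 to 206 CPM in cluster 10, 601 to 891 CPM in cluster 2 and 748 to 1035 CPM in cluster 6, and macrophage markers were 206 to 335, 535 to 876 and 527 to 841 CPM. The part of these values in the differences between clusters was not tested.

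**Figure D3:**
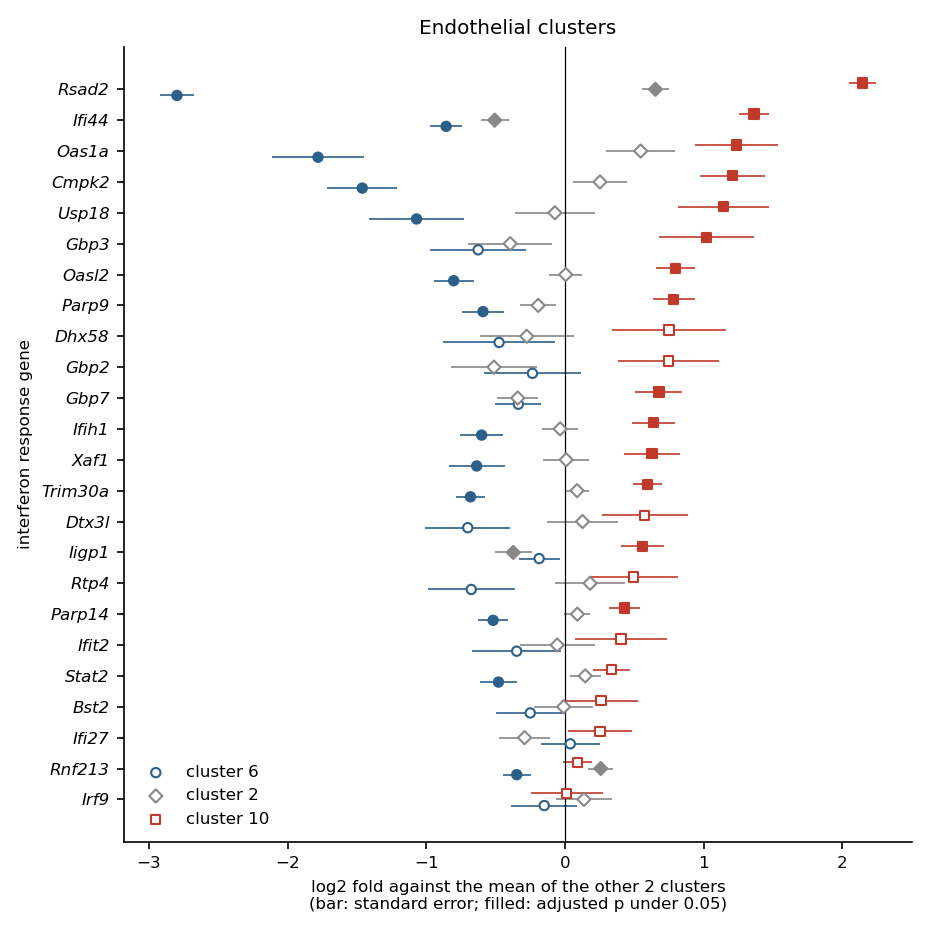
Log2 fold of 24 interferon response genes in endothelial clusters 6, 2 and 10, each against the mean of the other 2 clusters, with the standard error as a bar and filled symbols for an adjusted p under 0.05. For most genes cluster 10 lies right of 0 and cluster 6 left of it, with Rsad2 at 2.14 and -2.80.

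How many of these genes were seen in the same nucleus differed between lineages in the same way. After thinning to 1000 UMIs, 27.3% of endothelial (exact interval 25.9 to 28.8%) and 24.5% of immune nuclei (22.1 to 27.1%) held UMIs of at least 3 of the genes. Stromal nuclei had 6.67% and endocrine nuclei 2.54%. Without thinning the 4 shares were 55.0%, 48.7%, 27.2% and 44.9%, the last in the deepest lineage. At least 6 of the genes were seen in 174 of 19006 nuclei, 112 of them endothelial.

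The libraries labelled KO and WT were then compared for the same genes. Tmem127 in endocrine nuclei stood at 44.6 and 47.9 CPM in libraries labelled KO and at 37.0, 35.7 and 36.2 CPM in WT libraries, so KO values were above WT values. In endothelial nuclei it stood at 50.6 and 27.1 CPM in KO and at 47.8, 48.8 and 35.7 CPM in WT, and the groups overlapped. Since the deleted part is not given, these UMIs check no label. With 2 KO and 3 WT libraries and a term for the gene annotation, 0 of 32 genes were called in all nuclei, where 0% of all genes were called. In endothelial nuclei 0 of 28 were called (0.00949% of all genes), in immune 0 of 23 (0.0236%), in stromal 0 of 27 (0.0365%) and in endocrine 0 of 28 (0%). DESeq2 also called 0 in each. At an unadjusted p under 0.05 there were 5, 2, 4, 2 and 1 genes in these 5 sets, where 7.0%, 3.41%, 4.85%, 6.65% and 6.60% of all genes were.

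Most estimates were above 0. In all nuclei 27 of 32 were, with a median log2 fold of 0.23, beside 0.01 over all genes. The counts were 20 of 28 in endothelial (median 0.09), 21 of 23 in immune (0.49), 18 of 27 in stromal (0.22) and 23 of 28 in endocrine nuclei (0.28). Medians over all genes in these lineages were 0.009, -0.002, -0.001 and 0.006. The genes were measured in the same libraries, so their folds are not independent of each other. Without KO replicate 2 the medians of the interferon response genes were 0.05 in all nuclei, -0.04 in endothelial, 0.41 in immune, 0.02 in stromal and 0.20 in endocrine nuclei. Without KO replicate 1 they were 0.41, 0.27, 0.69, 0.25 and 0.37, and without WT replicate 1 0.41, 0.27, 0.70, 0.34 and 0.37. Only KO replicate 1 and WT replicate 1 share their annotation, so the annotation term absorbs either when the other is left out. Both of these fits therefore compare KO replicate 2 with WT replicates 2 and 3 and are not separate checks. The fit without KO replicate 2 compares KO replicate 1 with WT replicate 1. Without WT replicate 2 the endothelial median was 0.04 and the stromal one 0.09, and without WT replicate 3 they were 0.13 and 0.10.

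**Figure D4:**
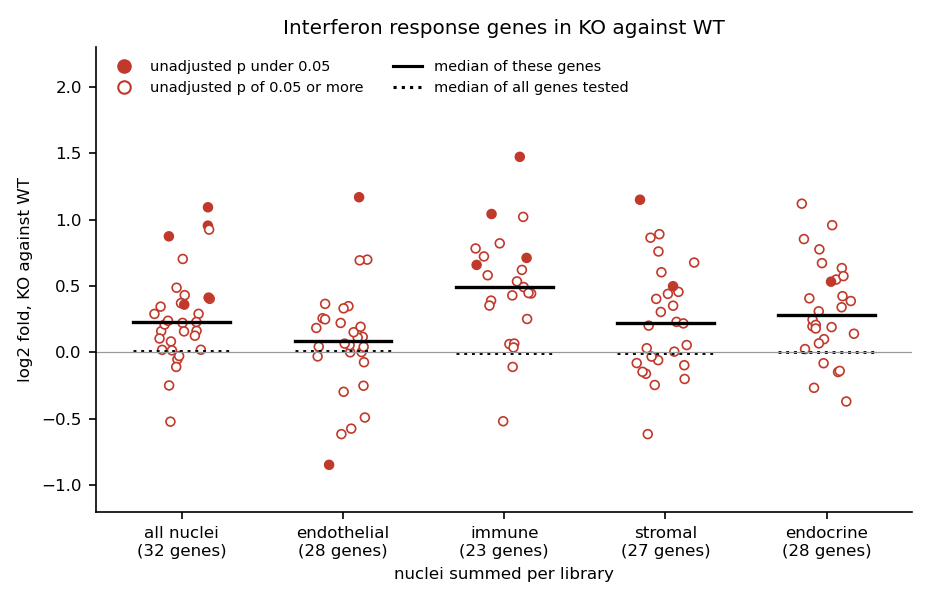
Log2 fold, KO against WT, of each interferon response gene tested in all nuclei and in 4 lineages, with filled points at an unadjusted p under 0.05, a solid line at their median and a dotted line at the median of all genes tested. Medians run from 0.09 in endothelial to 0.49 in immune nuclei, and no gene passed the adjusted threshold.

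In immune nuclei Iigp1 stood at 89.1 and 128 CPM in KO and at 44.6, 12.8 and 41.7 CPM in WT, with 63.7 CPM in the unassigned library. Both KO libraries were above all WT libraries, and the log2 fold of 1.47 ± 0.38 had an adjusted p of 0.5 by edgeR's quasi-likelihood test. It passed without the filter on low counts (1.42, adjusted p = 0.0215) and without WT replicate 2 (1.29, 0.0477), but not without WT replicate 3 (1.57). The fold was 2.01 without KO replicate 1 and 2.02 without WT replicate 1. With the annotation term, both of these fits compare KO replicate 2 alone with WT replicates 2 and 3. Without KO replicate 2 the fold was 1.03, from KO replicate 1 against WT replicate 1.

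Oasl2 in immune nuclei stood at 101 and 134 CPM in KO and at 43.8, 64.0 and 82.1 CPM in WT (1.04 ± 0.28, adjusted p = 0.566 by edgeR). Parp14 stood at 287 and 309 CPM in KO and at 195, 145 and 195 CPM in WT (0.71 ± 0.21, adjusted p = 0.696 by edgeR). Rnf213 stood at 442 and 478 CPM in KO and at 309, 243 and 319 CPM in WT (0.66 ± 0.20, adjusted p = 0.706 by edgeR). For these 3 genes the groups did not overlap and the difference was not called. Summed over the 32 genes, immune nuclei held 2289 and 2663 CPM in KO and 1740, 1469 and 1896 CPM in WT. The unassigned library held 2321 CPM, above all WT libraries and between the KO libraries. In macrophages alone Iigp1 held 116 and 148 CPM in KO and 66.5, 15.2 and 69.3 CPM in WT, and the groups overlapped for Oasl2.

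**Figure D5:**
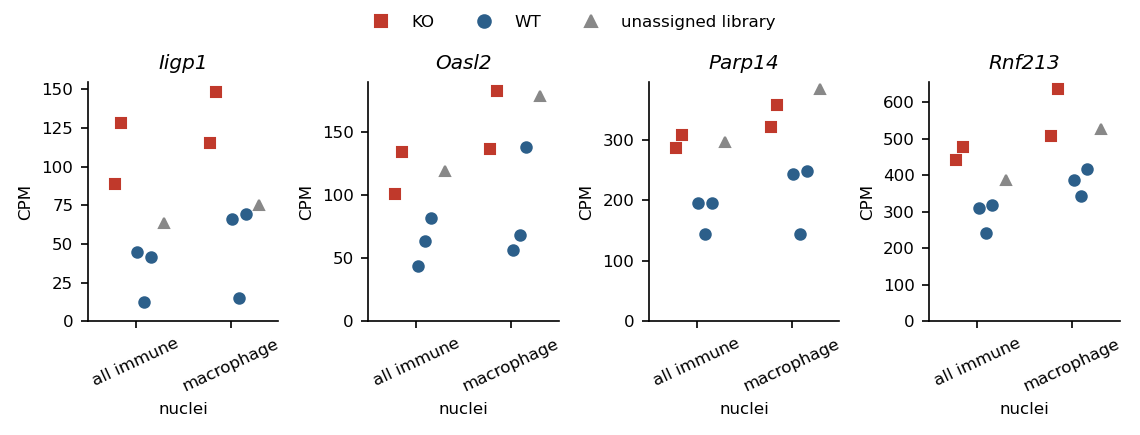
Level in CPM (linear axes from 0) of Iigp1, Oasl2, Parp14 and Rnf213 in all immune nuclei and in macrophages, with a symbol per library (2 KO, 3 WT, 1 unassigned). In all immune nuclei both KO symbols lie above the 3 WT symbols for each gene, and in macrophages the Oasl2 groups overlap.

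Genes with both KO libraries above all WT libraries numbered 11 of 23 in immune nuclei, where 9.76% of all genes did so. There were 11 of 32 in all nuclei (13.2% of all genes), 3 of 28 in endothelial (10.6%), 7 of 27 in stromal (10.8%) and 8 of 28 in endocrine nuclei (14.1%). In endothelial nuclei 2 genes, Usp18 and Trim30a, had both KO libraries below (7.81% of all genes). Within both annotation batches, 14 of 23 genes were higher in KO in immune nuclei and 0 lower, where 17.7% of all genes were higher and 21.5% lower. In endothelial nuclei 8 of 28 were higher and 5 lower, where 20.2% of all genes were higher and 16.8% lower.

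Other values moved with the same libraries. Gm42418, a transcript that overlaps ribosomal RNA genes, stood at 20742 and 14085 CPM in KO and at 9168, 9748 and 6153 CPM in WT in immune nuclei, and was also higher in both KO libraries in the other 3 lineages. Summed markers of neutrophils were 5053 CPM in immune nuclei of KO replicate 2 and 124 to 172 CPM in those of the other libraries. In the dendritic class of that library, 12 nuclei, they reached 52774 CPM, and in its macrophages 218 CPM, against 110.0 to 192 CPM in the other libraries. Outside the immune lineage they were also highest in KO replicate 2. Its endothelial nuclei held 111 CPM, against 1.03 to 5.42 CPM in the other libraries, its stromal nuclei 97.6 CPM and its endocrine nuclei 84.96 CPM. Summed erythroid (red blood cell) markers were 181 CPM in its immune nuclei, against 5.58 to 17.1 CPM in the other libraries. They were highest in KO replicate 2 in the other 3 lineages too. Macrophages made up 62.7% and 66.9% of immune nuclei in KO and 52.8%, 59.7% and 50.9% in WT. The part of these values in the KO folds was not tested.

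Among classes tested alone, 0 of 20 genes were called in macrophages (0.0148% of all genes), 0 of 7 in adipocytes (0.253%) and 0 of 5 in Schwann or sustentacular nuclei (0%) by edgeR and by DESeq2, with 4, 2 and 1 at an unadjusted p under 0.05 (4.29%, 7.48% and 3.86% of all genes). In zona glomerulosa 0 of 15 genes were called, where 0.4% of all genes were, with 4 at an unadjusted p under 0.05 (11.4% of all genes) and 0 called by DESeq2. Parp9 held 37.1 and 40.5 CPM there in KO and 24.3, 28.4 and 25 CPM in WT, without overlap (0.60 ± 0.20, adjusted p = 0.300 by edgeR). The one gene of the pathway lists called in a KO comparison was Nlrc5, an activator of class I antigen presentation genes, in zona glomerulosa. It held 19.1 and 24.3 CPM in KO and 4.35, 8.71 and 8.99 CPM in WT, with no overlap (1.81 ± 0.31, adjusted p = 0.0275 by edgeR). In all nuclei Ifnar1 (-0.03 ± 0.18) and Ifnar2 (-0.13 ± 0.15) did not pass.

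A last test asked whether the KO fold differed between lineages. It called 0 of 30 genes for endothelial minus endocrine (0% of all genes), 0 of 29 for immune minus endocrine (0.0235%) and 0 of 28 for stromal minus endocrine nuclei (0%) by edgeR, and DESeq2 also called 0 in each. At an unadjusted p under 0.05 there were 1, 0 and 0, where 3.47%, 4.24% and 5.10% of all genes were. On counts simulated for immune nuclei the KO test recovered 35.4% of changes of 1 log2 unit and 88.5% of changes of 2 log2 units, and for endothelial nuclei 28% and 84%. The simulated counts had the same set spread between libraries for every gene, and many well-captured genes were changed together. These rates therefore do not measure recovery in the real libraries, where it may be lower.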

How the data were processed

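The authors deposited raw UMI counts for each gene in each barcode, from Cell Ranger 4.0.0 (KO replicate 1, WT replicate 1) or 3.1.0 (the others) per the file headers, on mm10 per the submitters' processing notes. No source used here says whether introns were counted. Members and gene lists were chosen with earlier results of these data known.

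Of 21724 barcodes, 48 with under 300 genes or over 5% mitochondrial UMIs and 641 doublets marked by Scrublet were removed. Nuclei were clustered with scanpy 1.11.5 (2000 variable genes without interferon genes, 30 components, batch alignment by library, Leiden resolution 0.8), and clusters were named where at least 3 fixed markers passed. Cluster 3 (2167 nuclei) stayed unnamed and joined no lineage.

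For each library and class, counts were added up and tested with edgeR 4.0.16 (quasi-likelihood, TMM, filterByExpr, two-sided, Benjamini-Hochberg over all genes tested, adjusted p under 0.05). Lineages and endothelial clusters were fitted over 6 libraries with library as a block, KO against WT over 5 libraries with annotation as a term. SE is the log2 fold divided by the root of F. DESeq2 1.42.0, other normalization, filters, clustering, thinning and left-out libraries were alternatives. The script was tested on simulated data. All 32 genes could be named, and of each pathway list up to 5 genes per direction with the smallest p among those that passed, besides Ifnar1 and Ifnar2. 1 further gene of these lists is not reported here.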

Additional observations from a re-analysis of the deposited data

Results flagged for a closer look

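Mx1, an interferon-induced GTPase gene, stood outside the comparisons because 2 libraries do not list it. It had 18 UMIs in KO replicate 2, 17 in WT replicate 2, 34 in WT replicate 3 and 50 in the unassigned library, above the 3 counts that a count of 0 allows. Immune nuclei held 52.3, 51.1, 35.5 and 45.0 CPM of Mx1 in these libraries, and endothelial nuclei 2.46, 1.35, 1.55 and 2.3 CPM. With 1 KO library no comparison between genotypes was made.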

How the results depend on the processing

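Of 146 calls between lineages, 111 were tested and held under every alternative run, 29 were lost under at least 1, and 6 were not tested under some and held elsewhere. Of 31 between endothelial clusters, 21 held and 10 were lost under at least 1. No call changed direction. Thinning to 1000 UMIs lost 26 of the 146 and moved the count of higher genes in stromal against endocrine nuclei from 21 to 10, of lower genes in endothelial against immune nuclei from 7 to 4, and of lower genes in endothelial against stromal nuclei from 2 to 1. That last count was also 1 without the filter on low counts, with doublets kept and with only the 5 libraries with a group. In cluster 2 the count of higher genes was 1 under DESeq2 and at clustering resolution 1.2, and the count of lower genes 1 under DESeq2 and without the filter. In KO against WT the count of called genes was 1 without the filter in immune nuclei and in adipocytes. Leaving out each library gave 0 to 1 called genes in immune, adipocyte and Schwann or sustentacular nuclei, 1 to 2 lower genes in endothelial against endocrine and against stromal nuclei, and 1 to 2 higher and 1 to 2 lower genes in cluster 2. In Schwann or sustentacular nuclei the called gene was Iigp1, without KO replicate 1 (2.76) or WT replicate 1 (2.78). With the annotation term, both of these fits compare KO replicate 2 alone with WT replicates 2 and 3. The cause of the changed counts was not tested. Leaving out hepatocyte-like nuclei (47 of 50 in KO replicate 1), chosen after seeing the data, left a median log2 fold of 0.23 in all nuclei. Replicate numbers follow accession order: No paired analysis was possible because the numbers pair no samples. Isg15, Ifit3b and the ligand genes had too few UMIs to be tested, and every KO value rests on 2 KO libraries.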
